A study of Mus musculus with 162 samples.

Results

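The 10 genes described here mark neurons by the transmitter they use. Tph2, Slc6a4 and Fev stand for serotonin, Dbh and Slc6a2 for noradrenaline, Slc6a3 for dopamine, Chat, Slc18a3 and Slc5a7 for acetylcholine and Slc6a5 for glycine. They were chosen by symbol, as genes of neurons that make or take back 1 of these 5 transmitters, and all 10 were found among the 53686 rows of the deposited count table. The series holds mRNA libraries from 9 organs of 18 adult male C57BL/6J mice, 3 at each of 6 time points of short-term fasting. Mice of the 0 h group were fed ad libitum, and the others had no food for the last 2, 8, 12, 18 or 22 h before their organs were taken at 1 common hour of the day. Each mouse gave 1 library of every organ.

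Of the 72 nervous system libraries 70 were kept. The methods of the study describe BST (brainstem) as mesencephalon, pons and myelencephalon, and BRN as telencephalon and diencephalon, with CBL the cerebellum and OB the olfactory bulb. BST gave 18 libraries of 6998492 to 11776354 counts (median 10540289), CBL 18 of 6487419 to 22071004 and OB 18 of 8224940 to 17704828. BRN kept 16 of 18, of 3045845 to 12108290 counts (median 8113246), and the libraries of 8 h replicate 3 (130701 counts) and 18 h replicate 1 (279848) were left out for their low totals, so that BRN has 2 mice at each of these times. CBL was read more deeply at 0 h (20396385 to 22071004 counts) than at the other times (6487419 to 9487976). Levels are in CPM, the counts scaled by the total of their library. A gene at 3 counts or fewer is taken to lie at the floor, which was 0.136 to 0.985 CPM in a kept library and covers counting error alone.

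Apart from Fev, a transcription factor, the genes code for enzymes that make a transmitter, for a transporter that loads it into vesicles, or for transporters that carry a transmitter or its precursor into the cell. Serotonin neurons sit in the raphe nuclei, from the midbrain to the medulla. Noradrenaline neurons form the locus coeruleus and small groups of the pons and medulla, midbrain dopamine neurons fill the substantia nigra and ventral tegmental area, and glycine is a main inhibitory transmitter of the hindbrain and spinal cord. Cholinergic neurons include the motor neurons of the cranial nerves as well as cells of the basal forebrain and striatum.

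The organ labels were checked against region markers, as the summed CPM of each list. Of 11 Hox genes of the hindbrain, the sum was 109.3 to 213 CPM in BST, at most 6.81 in BRN, at most 2.16 in CBL and at most 0.262 in OB. Of 8 forebrain genes, it was 181 to 281 CPM in BRN, 149.3 to 215 in OB, at most 15.0 in BST and at most 17.8 in CBL. The cerebellum list of 7 genes summed to 5428 to 6754 CPM in CBL and at most 522 in the other organs, and the olfactory bulb list of 5 genes to 1149 to 1425 CPM in OB and at most 67.9 elsewhere. The sum of En1, En2, Pax5 and Pax7 (the En/Pax list, drawn up for the midbrain) was 109.5 to 150.4 CPM in CBL, 4.17 to 32.4 in BST (median 6.77), 0.328 to 8.75 in BRN (median 4.77) and at most 0.524 in OB. It was thus highest in CBL and does not set BST apart from BRN. The dopamine transporter Slc6a3 lay at 1.15 CPM or less in 17 of 18 BST libraries and at 7.22 CPM or more in all 16 kept BRN libraries. BRN also holds the diencephalon, and the hypothalamus list of 6 genes summed to 51.6 to 281 CPM in BRN and at most 9.71 CPM in the other 3 organs. Which part of BRN gave its Slc6a3, and where the midbrain dopamine neurons lay, was not tested.

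One BST library, 0 h replicate 2, stands apart. Its Slc6a3 was 20.2 CPM, against 0 to 1.15 CPM in the 17 others, and its Slc6a5 was 272 CPM, against 366 to 551 CPM. Dbh (11.5 CPM against 13.7 to 32.7), Chat (11.3 against 15.0 to 26.8), Slc18a3 (12.8 against 16.5 to 28.2) and Slc5a7 (56.9 against 67.9 to 99.95) were also below all 17 others. Th, which makes the precursor of dopamine and noradrenaline, was 24.2 CPM there and 11.8 to 18.7 CPM in the others. Of the cerebellum list 7 of 7 genes lay above all 17 other BST libraries, with a sum of 522 CPM (median of the others 129) and Car8 as the most abundant at 170 CPM. Of the En/Pax list 2 of 4 did, with a sum of 32.4 CPM (median of the others 6.75) led by En2 at 16.7 CPM. Of the pituitary list 3 of 6 did, led by Gh at 39.8 CPM, while Pou1f1 was at 0. Of the hypothalamus list 3 of 6 did, with a sum of 9.71 CPM (median of the others 2.81) led by Pomc at 7.79 CPM. The forebrain sum was also the highest of BST (15.0 CPM against at most 13.5, 2 of 8 genes at 0). Its most abundant gene, Neurod6, was at 6.73 CPM (median of the others 6.87), and Six3 was at 6.15 CPM (median of the others 0, at most 3.65). The sums of 5 peripheral ganglion and nerve genes (27.2 CPM against at least 32.3, led by Prph, 1 of 5 at 0) and of 5 pan-neuronal genes (5095 CPM against at least 5141, led by Snap25, none at 0) were the lowest. Of the Hox list 5 of 11 genes lay below all 17 others, and the sum was the lowest in BST at 109.3 CPM (median of the others 165.3), with Hoxb5 the most abundant and none at 0. Results that rest on this library are given with and without it, and the part of the extra tissue markers in them was not tested.

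BST held the highest levels of 9 of the 10 genes, and Slc6a3 was the exception. Per kb of exon, the order of the mean levels in BST was Slc6a5 (65.7 ± 9.34 CPM per kb, SD, n = 18), Tph2 (16.7 ± 6.27), Slc5a7 (14.6 ± 1.99), Slc18a3 (8.84 ± 1.69), Dbh (8.34 ± 1.91), Slc6a4 (5.57 ± 2.22), Slc6a2 (4.24 ± 1.14), Chat (4.07 ± 0.712), Fev (0.750 ± 0.302) and Slc6a3 (0.387 ± 1.36). The mean and SD of Slc6a3 rest on 0 h replicate 2 (5.84 CPM per kb), and the median of all 18 libraries was 0.0469 CPM per kb. Slc6a5 lay above all the others in every BST library. Neighbours in this order whose means differed by less than the larger SD were Tph2 and Slc5a7, Slc18a3 and Dbh, Slc6a4 and Slc6a2, and Slc6a2 and Chat. Fev and Slc6a3 also did, but through the SD of Slc6a3, which rests on 0 h replicate 2. In the 17 other libraries Slc6a3 had a median of 0.143 CPM and at most 1.15 CPM, and this pair was not compared without 0 h replicate 2. In BRN the order began with Slc6a3 (4.90 ± 1.90 CPM per kb, n = 16) and Tph2 (3.85 ± 2.36), which differed by less than their SD. In CBL Slc6a5 came first (5.11 ± 0.778) and in OB Slc6a3 (3.41 ± 0.529), and in both organs the next gene, Dbh, had no library that reached them.

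**Figure D1:**
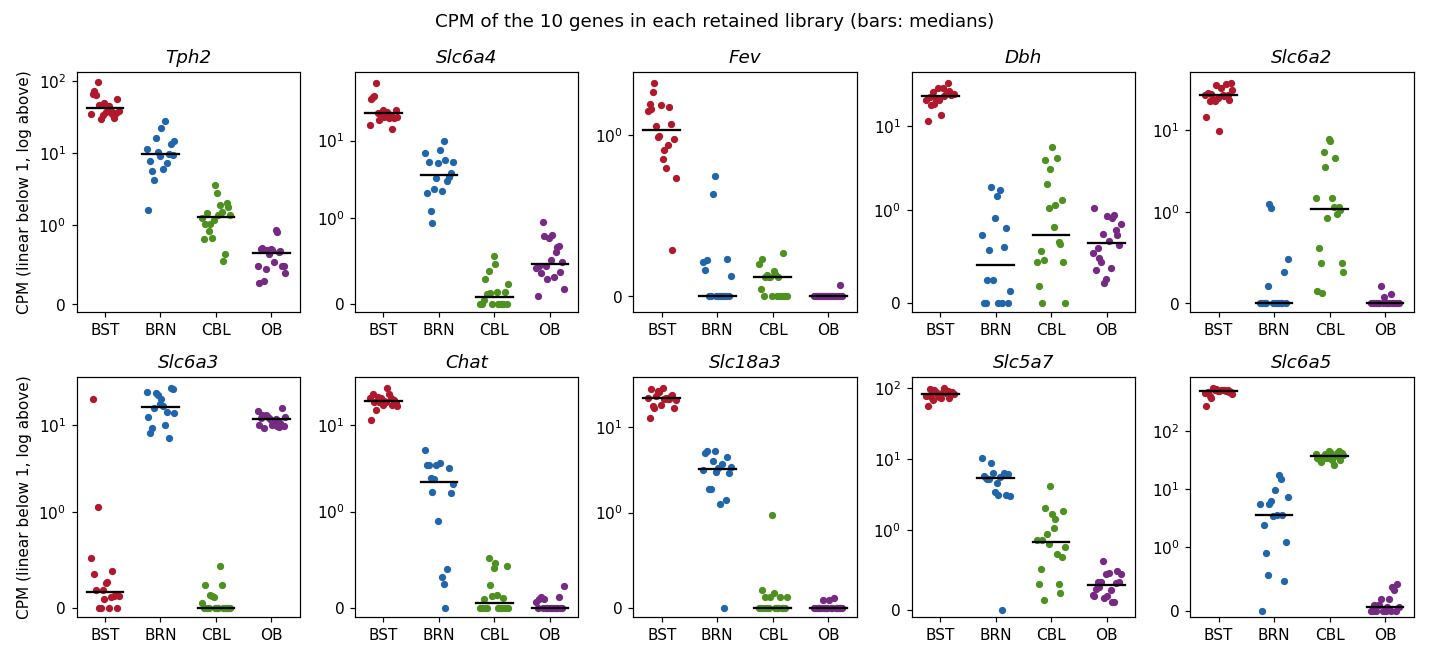
CPM of each of the 10 genes in every kept library of BST, BRN, CBL and OB (1 point a library, ordered by fasting time, bars at the median; axis linear below 1 CPM and logarithmic above). BST lies highest for 9 genes, and for Slc6a3 BRN (7.22 to 27.1 CPM) and OB (9.44 to 15.8 CPM) lie above all BST libraries but 0 h replicate 2.

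The 4 organs were compared in a single edgeR quasi-likelihood fit of 18496 genes. A gene was called when its log2FC exceeded 1 in size and its Benjamini-Hochberg adjusted p, taken over all 18496 genes, was under 0.05. The question was in which dissected region each transmitter's neurons leave their RNA. Between BST and BRN 10 of 10 genes were called, where 26.7% of all genes were, 9 with BST higher and Slc6a3 with BRN higher. Between BST and CBL 9 were called (22.2% of all genes), between BST and OB 10 (25.9%), between BRN and CBL 9 (31.4%), between BRN and OB 6 (25%) and between CBL and OB 9 (24.3%). In this last pair Slc6a4, Fev, Chat and Slc18a3 lay at 0.977 CPM or less in every library, under the filter limit of 1.09 CPM. They were tested because BST or BRN passed the limit, and their calls between CBL and OB are not read further. By the filter of each organ alone, Fev and Slc6a2 did not pass in BRN, nor Slc6a3 in BST. In OB only Dbh and Slc6a3 passed, and in CBL only Tph2, Dbh, Slc6a2, Slc5a7 and Slc6a5. The other genes entered the pairs of such an organ because another organ passed the limit. The counts of genes called are thus a description and are not read against the shares. In tissue homogenates such as these, fewer cells of a type and less RNA per cell cannot be told apart. BST and BRN also share no series of library numbers, so that organ and number series cannot be told apart between them.

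Tph2 makes serotonin in neurons, as the rate-limiting tryptophan hydroxylase of the brain. Its level in BST was 30.1 to 98.5 CPM (median 42.1), in BRN 1.63 to 27.96 CPM (median 9.56), in CBL 0.546 to 3.63 CPM (median 1.29) and in OB 0.261 to 0.939 CPM (median 0.648). All 18 BST libraries lay above every BRN library, and all 16 BRN libraries above every OB library. The log2FC of BST over BRN was 2.07 (SE 0.16, adjusted p = 1.81e-17), of BST over CBL 5.16 (SE 0.18) and of BST over OB 6.38 (SE 0.20). Among the organ differences called between BST and BRN, that of Tph2 had the smallest absolute log2FC of the 10 genes.

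Slc6a4, the serotonin transporter and target of many antidepressants, showed the same order for BST and BRN. It was 14.2 to 55.7 CPM in BST (median 22.5) and 0.942 to 9.97 CPM in BRN (median 3.56). The 2 ranges did not overlap, and the log2FC of BST over BRN was 2.55 (SE 0.16, adjusted p = 3.51e-22). In CBL it had at most 4 counts in a library, with 8 of 18 libraries at 0, and in OB 1 to 12 counts, with a median of 0.459 CPM in OB and 0.0810 CPM in CBL. CBL was called lower than OB by edgeR, on levels under the filter limit in both organs. No fold is given, since CBL had no count at 1 of the 6 times.

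Fev (Pet-1), an ETS-family transcription factor that sets up and maintains the serotonin neuron identity, was low everywhere. In BST it had 2 to 26 counts a library, or 0.286 to 2.30 CPM (median 1.08). In BRN 9 of 16 libraries had no count and the highest had 6 counts (0.745 CPM), and 16 of 18 BST libraries lay above that. In OB 1 count was found over all 18 libraries, and in CBL 19 counts. Fitted folds are left out for Fev, since BRN at 12 and 18 h and OB at 5 of 6 times had no count.

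Dbh turns dopamine into noradrenaline. It was 11.5 to 32.7 CPM in BST (median 22.9), 0 to 1.89 CPM in BRN (median 0.407), 0 to 5.55 CPM in CBL (median 0.734) and 0.212 to 1.04 CPM in OB (median 0.645). Every BST library lay above every library of the other 3 organs. The log2FC of BST over BRN was 5.33 (SE 0.32, adjusted p = 6.85e-21) and of BST over CBL 4.26 (SE 0.25). The first was 6.39 without replicate 1 and 6.18 without replicate 3, where BRN had no count at 1 of the 6 times, and the second 4.98 without replicate 1. BRN and OB were not called apart (log2FC -0.11, SE 0.49, adjusted p = 0.865).

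Slc6a2 takes noradrenaline back into the cell. It was 9.68 to 37.8 CPM in BST (median 26.8), and in BRN 11 of 16 libraries had no count and no library had more than 9 counts or more than 1.26 CPM. CBL held more, 0.115 to 7.81 CPM (median 1.10) with no library at 0, while 15 of 18 OB libraries had none. The log2FC of BST over CBL was 4.00 (SE 0.30, adjusted p = 2.75e-14), and 4.70 without replicate 1, and no fold is given against BRN or OB, where 3 and 4 of the 6 times had no count. Both noradrenaline genes were thus unevenly present in CBL: Dbh was at 3 CPM or more in 4 libraries (2 h replicate 3, 8 h replicate 3, 12 h replicate 1 and 18 h replicate 1), and Slc6a2 was at its 4 highest values in the same 4, from 4.55 to 7.81 CPM. The hindbrain Hox list summed to 1.80, 1.40, 2.16 and 0.700 CPM in these 4, and 3 of them had the 3 highest sums of CBL. Of its 11 genes, 4, 4, 3 and 7 were at 0 there, and the most abundant were Hoxb2, Hoxa2, Hoxb2 and Hoxb3. Its part in the CBL values was not tested.

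Slc6a3, the dopamine transporter, had an order of its own. In BST it was 0 to 1.15 CPM in 17 libraries, 4 of them with no count, and 20.2 CPM in 0 h replicate 2 (median of all 18, 0.162 CPM). In BRN it was 7.22 to 27.1 CPM (median 16.4) and in OB 9.44 to 15.8 CPM (median 11.7), where dopamine cells of the glomerular layer are found. In CBL 11 of 18 libraries had no count and the highest had 0.431 CPM. The log2FC of BST over BRN was -5.72 (SE 0.39, adjusted p = 5.83e-18), -6.38 (SE 0.26) without BST 0 h replicate 2 and -6.88 (SE 0.36) without replicate 2 of every organ and time. BST and CBL were not called apart by edgeR (adjusted p = 0.0665). They were called apart without that library, and with it by DESeq2 and with no filter beyond 1 count, each time with BST higher. They were not without replicate 1 (adjusted p = 0.118), replicate 2 (0.457) or replicate 3 (0.0807), nor with the animal as a block (0.0886), and no fold is given, since CBL had no count at 1 of the 6 times and the 17 other BST libraries had at most 13 counts. BRN and OB differed by less than the fold asked for (log2FC of BRN over OB 0.65, SE 0.24, adjusted p = 0.0122), and their ranges overlapped.

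The 3 cholinergic genes were all highest in BST. Chat makes acetylcholine, Slc18a3 loads it into vesicles, and Slc5a7 takes choline into the nerve ending. In BST Chat was 11.3 to 26.8 CPM (median 18.9), Slc18a3 12.8 to 28.2 CPM (median 21.4) and Slc5a7 56.9 to 99.95 CPM (median 84.1). In BRN Chat was 0 to 5.22 CPM (median 2.22), Slc18a3 0 to 5.21 CPM (median 3.20) and Slc5a7 0 to 10.5 CPM (median 5.39). All 18 BST libraries lay above every BRN library for each gene. The single BRN library with no count of any of the 3 was 18 h replicate 2, the shallowest kept, in which 3 counts equal 0.985 CPM. The log2FC of BST over BRN was 3.41 (SE 0.20) for Chat, 2.87 (SE 0.17) for Slc18a3 and 3.92 (SE 0.15, adjusted p = 1.86e-30) for Slc5a7. Without replicate 3 these were 4.00, 3.96 and 5.26, values that depend on 18 h, where BRN then had only replicate 2 and no count of the 3 genes. Without replicate 1 that of Chat was 4.17. In CBL the median library had no count of Slc18a3 and 0.0465 CPM of Chat, and in OB the median library had none of either.

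Slc6a5 clears glycine into the nerve endings that release it. It was 272 to 551 CPM in BST (median 497), 25.7 to 45.9 CPM in CBL (median 36.4), 0 to 17.7 CPM in BRN (median 3.55) and at most 0.414 CPM in OB. No 2 of BST, CBL and BRN overlapped, and all 18 CBL libraries lay above every OB library, in a tissue whose Golgi cells use glycine. The log2FC was 3.74 (SE 0.15, adjusted p = 6.62e-28) for BST over CBL, 6.66 (SE 0.21, adjusted p = 5.57e-32) for BST over BRN and -2.92 (SE 0.20, adjusted p = 2.23e-18) for BRN over CBL. Without BST 0 h replicate 2, its lowest BST value was 366 CPM.

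How far the genes varied from mouse to mouse within BST also differed. The coefficient of variation over the 18 libraries was 37.6% for Tph2, 39.9% for Slc6a4 and 40.3% for Fev, whose median count was 11. It was 22.9% for Dbh and 26.9% for Slc6a2, 17.5% for Chat, 19.1% for Slc18a3, 13.7% for Slc5a7 and 14.2% for Slc6a5. The serotonin genes thus spread most among the genes with a median of more than 2 counts.

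The highest serotonin levels were in libraries with high En/Pax sums. Tph2 was highest in 2 h replicate 2 (98.5 CPM), 0 h replicate 3 (73.5), 0 h replicate 2 (66.6) and 2 h replicate 1 (65.7), and 30.1 to 56.1 CPM in the 14 other BST libraries. Slc6a4 was 34.9 to 55.7 CPM in these 4 and at most 25.01 CPM in the 14 others. The summed level of the 4 En/Pax genes was 23.5, 15.1, 32.4 and 26.03 CPM in the same 4 libraries, which were its 4 highest, and 4.17 to 8.69 CPM in the 14 others. None of the 4 genes was at 0 in any BST library, and En2 was the most abundant in 3 of these 4 libraries and Pax5 in 2 h replicate 2, at 8.92 CPM. The cerebellum list summed to 144.1, 133.02, 521.8 and 329.5 CPM in these 4 and to 98.5 to 159.6 CPM in the 14 others. Its 2 highest sums, led by Car8, were thus those of 0 h replicate 2 and 2 h replicate 1, and Cbln1 led in all other BST libraries. This was seen after the values were known, all 4 libraries are of 0 or 2 h, and the part of neighbouring tissue in the serotonin levels was not tested.

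Genes of 1 transmitter were set beside each other across mice, on log2 of the normalised CPM plus 0.5. The family held 36 planned correlations, 13 in BST, 13 in BRN, 4 in CBL and 6 between organs of the same mouse, with two-sided permutation tests of 100000 resamples, and 21 had an adjusted p under 0.05 for Pearson's r. Left without the 2 libraries farthest from the median of the gene named first, 7 had. The 7 were Tph2 with Slc6a4, Dbh with Slc6a2 and Chat with Slc5a7 in BST, Chat with Slc18a3 in BRN, and Dbh with Slc6a2, Chat with Slc5a7 and Dbh with Chat in CBL. Chat with Slc18a3 in BRN had r of 0.419 with values centred within time points, not past the threshold. Centred values were permuted across all libraries and not within time points. This makes the threshold easier to pass, so that no pass is read from centred values. Chat in CBL had at most 4 counts in a library and more than 3 in 1 of 18, so that its correlations there are no finding.

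Mice with more Tph2 had more Slc6a4 in BST. Pearson's r was 0.948 over 18 mice (permutation p = 1e-05, the smallest these resamples can give, adjusted p = 0.00012) and Spearman's rho was 0.901 (permutation p = 1e-05, adjusted p = 0.00036). Without the 2 farthest libraries r was 0.899, with values centred within time points 0.927, and 0.923 and 0.977 within the series of 8 and of 10 library numbers. In BRN r was 0.680 (permutation p = 0.00314, adjusted p = 0.0103) and rho 0.600 (permutation p = 0.0157, adjusted p = 0.0705). There r was 0.630 without the 2 farthest libraries, no longer past the threshold, 0.841 centred within time points and 0.817 within the 11 libraries of 1 number series. Fev had lower r to both in BST, 0.596 to Tph2 (permutation p = 0.00903, adjusted p = 0.0243, rho 0.424, permutation p = 0.0800) and 0.598 to Slc6a4 (permutation p = 0.00993, adjusted p = 0.0243, rho 0.517, permutation p = 0.0297). Without the 2 farthest libraries these r were 0.422 and 0.332, no longer past the threshold. Centred within time points they were 0.626 and 0.553. They were 0.400 and 0.321 within the number series of 8, and 0.871 and 0.886 within that of 10. The difference from the r of Tph2 to Slc6a4 was not tested.

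Dbh and Slc6a2 went together in BST and in CBL. In BST r was 0.873 (permutation p = 4e-05, adjusted p = 0.00036) and rho 0.818 (permutation p = 6e-05, adjusted p = 0.00072), with r of 0.771 without the 2 farthest libraries, 0.912 centred within time points, and 0.940 and 0.886 within the number series of 8 and 10. In CBL r was 0.912 (permutation p = 1e-05, adjusted p = 0.00012) and rho 0.825 (permutation p = 6e-05, adjusted p = 0.00072), with 0.876 without the 2 farthest libraries and 0.875 centred within time points. The CBL relation spans a median of 8 counts for Dbh and 10 for Slc6a2. The level of Dbh in BST showed no relation past the threshold to its level in CBL of the same mouse (r = -0.123, permutation p = 0.633, rho = -0.0506, permutation p = 0.841).

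Among the cholinergic genes of BST, Chat and Slc5a7 had r of 0.853 (permutation p = 1e-05, adjusted p = 0.00012) and rho of 0.723 (permutation p = 0.00105, adjusted p = 0.00945). It was 0.685 without the 2 farthest libraries, 0.745 without BST 0 h replicate 2, 0.880 centred within time points, and 0.903 and 0.784 within the number series of 8 and 10. Chat and Slc18a3 had r of 0.665 (permutation p = 0.00314, adjusted p = 0.0103) and rho of 0.558 (permutation p = 0.0181, adjusted p = 0.0725), but this rests on BST 0 h replicate 2, without which r was 0.427 and no longer past the threshold. Slc18a3 and Slc5a7 had r of 0.588 (permutation p = 0.0108, adjusted p = 0.0243) and rho of 0.422 (permutation p = 0.0820), and r of 0.330 without that library, not past the threshold. In BRN Chat and Slc18a3 had r of 0.719 (permutation p = 0.00128, adjusted p = 0.00576, rho 0.576, permutation p = 0.0219). There Slc5a7 had r of 0.567 to Chat (permutation p = 0.0147, adjusted p = 0.0294, rho 0.315, permutation p = 0.236) and 0.740 to Slc18a3 (permutation p = 0.0266, adjusted p = 0.046, rho 0.238, permutation p = 0.373), and 0.285 and 0.143 without the 2 farthest libraries, not past the threshold. Slc18a3 lies within the gene body of Chat on the same strand, and the exons of these genes share 0 bases, so that a read was not counted for both through shared exon sequence.

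Some planned pairs joined genes of different transmitters in BST. Tph2 and Dbh had r of -0.248 (permutation p = 0.322, rho -0.251, permutation p = 0.314), and Dbh and Chat r of 0.406 (permutation p = 0.0974, rho 0.0733, permutation p = 0.773). Tph2 and Slc6a5 had r of -0.580 (permutation p = 0.0137, adjusted p = 0.0290, rho -0.439, permutation p = 0.0718), which was -0.564 without the 2 farthest libraries and -0.416 centred within time points, neither past the threshold, and -0.616 and -0.749 within the number series of 8 and 10. Slc6a3 and Slc6a5 had r of -0.884 (permutation p = 0.00069, adjusted p = 0.00414, rho -0.501, permutation p = 0.0371). It was -0.645 without BST 0 h replicate 2 and -0.283 without the 2 farthest libraries, where it was not past the threshold, and 14 of 18 libraries had 3 counts of Slc6a3 or fewer, so that it is no finding on dopamine neurons. Dbh and Slc6a5 had r of 0.546 (permutation p = 0.0269, adjusted p = 0.046, rho 0.381, permutation p = 0.119), and 0.0932 without that library. The pairs of Slc6a5 with cholinergic genes were not planned and have no test. As a description, r of Slc6a5 was 0.792 to Chat (0.560 without BST 0 h replicate 2), 0.764 to Slc5a7 (0.559) and 0.763 to Slc18a3 (0.575).

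In BRN Tph2, highest in BST, was set beside Slc6a5 and Dbh, which are also highest in BST. Dbh and Slc6a5 had r of 0.294 to each other in BRN (permutation p = 0.268, adjusted p = 0.386, rho 0.302, permutation p = 0.255), not past the threshold. Tph2 and Slc6a5 had r of 0.709 (permutation p = 0.00187, adjusted p = 0.00748, rho 0.606, permutation p = 0.0151, adjusted p = 0.0705), which was 0.761 centred within time points, and 0.444 without the 2 farthest libraries and 0.412 within the 11 libraries of 1 number series, both not past the threshold. Tph2 and Dbh had r of 0.623 (permutation p = 0.00761, adjusted p = 0.0228) and rho of 0.669 (permutation p = 0.00575, adjusted p = 0.0345). Here r was 0.717 centred within time points, and 0.502 without the 2 farthest libraries and 0.385 within the 11 libraries, both not past the threshold, on a median of 3 counts of Dbh. BRN 12 h replicate 3 had the highest Tph2 (27.96 CPM), Slc6a4 (9.97 CPM) and Slc6a5 (17.7 CPM) of BRN, and the highest sums of the hindbrain Hox list (6.81 CPM), the En/Pax list (8.75 CPM) and the cerebellum list (49.4 CPM). Their most abundant genes there were Hoxb5, Pax7 and Cbln1, and 2 of 11, 0 of 4 and 2 of 7 genes were at 0. The part of neighbouring tissue in these levels was not tested. Between organs of the same mouse, as paired by replicate number, Tph2 in BST and BRN had r of -0.557 (permutation p = 0.0251, adjusted p = 0.046, rho -0.426, permutation p = 0.102) over 16 mice. It was -0.607 centred within time points, but -0.475 without the 2 farthest mice and -0.517 without the mouse of BST 0 h replicate 2, both not past the threshold. Slc6a5 had r of 0.704 between BST and BRN (permutation p = 0.00113, adjusted p = 0.00576, rho 0.503, permutation p = 0.0492), and 0.410 without the 2 farthest mice and 0.564 without the mouse of BST 0 h replicate 2, both not past the threshold.

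**Figure D2:**
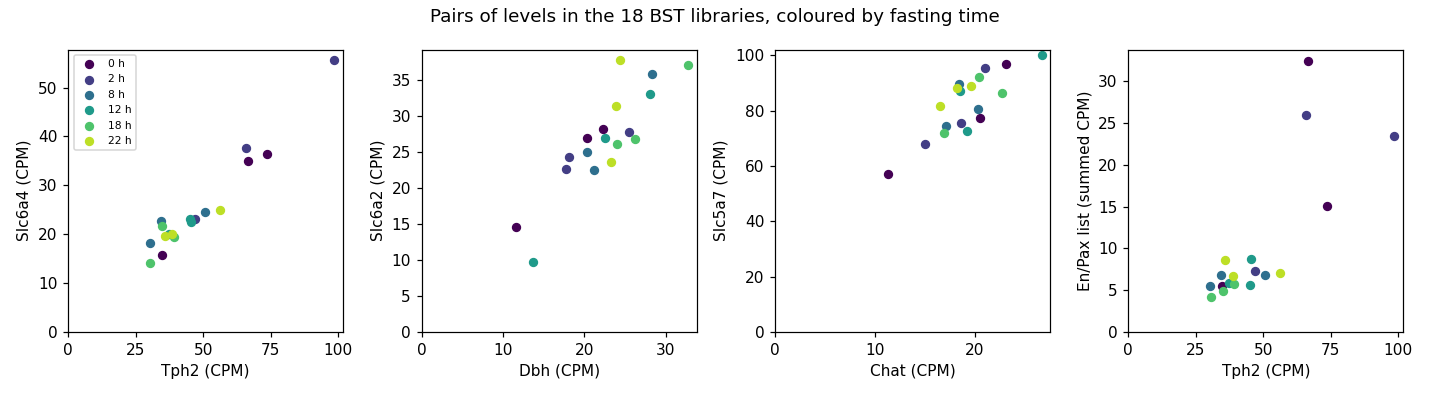
Levels in CPM of Tph2 and Slc6a4, Dbh and Slc6a2, and Chat and Slc5a7, and of Tph2 against the summed CPM of the En/Pax list (En1, En2, Pax5, Pax7), in the 18 BST libraries (1 point a mouse, coloured by hours of fasting). The first 3 pairs rise together (r of 0.948, 0.873 and 0.853 on the log scale), and the 4 libraries with the highest Tph2 have the 4 highest En/Pax sums.

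All genes kept in BST at a mean of at least 1 CPM were ranked by Pearson's r to a gene of each transmitter, as a description over the 18 libraries. Of 15791 genes Slc6a4 came closest to Tph2 (r = 0.948), and next were Ddc (0.905), the enzyme that makes serotonin from the product of Tph2, Hs3st4 (0.855), Mkln1os (0.836) and Gata3 (0.830), a transcription factor of serotonin neurons. These ranked 1, 2, 3, 5 and 6 without BST 0 h replicate 2. Closest to Dbh was Slc6a2 (0.873), then Col22a1 (0.792), Wars (0.762), Cpt1a (0.743) and Vwa8 (0.740), and without BST 0 h replicate 2 these ranked 2, 13, 21, 61 and 40. Closest to Chat were Clec16a (0.860), Slc5a7 (0.853), Acly (0.824), Osbpl6 (0.823) and Map1b (0.815), which ranked 2, 3, 22, 16 and 41 without that library. Closest to Slc6a5 were Sv2c (0.968), Scn4b (0.949), Rbms3 (0.939), Syt2 (0.928) and Pcyt1b (0.915), which ranked 1, 2, 10, 8 and 11 without it. Syt2 is a calcium sensor of fast transmitter release and Sv2c a protein of the synaptic vesicle. For Slc6a3, ranked among 15792 genes, the closest were Pomc (0.893), Rps3 (0.868), Cpe (0.866), Gm10275 (0.863) and Rps14 (0.851), and 14 of 18 libraries had 3 counts of Slc6a3 or fewer. Without BST 0 h replicate 2, Pomc ranked 394 (r = 0.489), Rps3 859 (0.412) and Gm10275 341 (0.501), and Cpe had r of 0.574, while Rps14 ranked 6 (r = 0.745).

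The other genes of these pathways were compared between BST and BRN from 3 lists, none of them a list of the 10 genes. Over all 18496 genes, 2532 were higher in BST, 2410 higher in BRN and 13554 not called, with a median log2FC of BST over BRN of 0.03. Of 19 enzymes and transporters tested, of 20, 7 were higher in BST, 2 in BRN and 10 were not called (median log2FC 0.74). The largest were Slc18a2, the vesicular monoamine transporter (log2FC 1.80, SE 0.17, 31.8 to 67.6 CPM in BST and 5.25 to 20.6 CPM in BRN), Slc6a9, the glial glycine transporter (1.62, SE 0.05), and Bche, which splits choline esters (1.41, SE 0.15). Higher in BRN were Gldc, of the glycine cleavage system (log2FC -2.60, SE 0.08, 3.08 to 5.38 CPM in BST and 17.0 to 28.6 CPM in BRN), and Pnmt, which makes adrenaline (-1.68, SE 0.53). Pnmt had at most 0.509 CPM in BST and 1.63 CPM in BRN. Its medians of 0.126 and 0.331 CPM lay under the filter limit of 1.09 CPM. With 4 libraries at 0 in each organ, its call is not read further. The glycine genes thus did not all go the same way, the transporters Slc6a5 and Slc6a9 being higher in BST and the degrading enzyme Gldc in BRN.

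Of 17 transcription factors tested, of 19, 9 were higher in BST, 4 in BRN and 4 were not called (median log2FC 1.22). Pax2, a midbrain-hindbrain and spinal interneuron factor, was 8.27 to 18.0 CPM in BST and at most 0.973 CPM in BRN, and Phox2a was 0.268 to 1.53 CPM in BST with 12 of 16 BRN libraries at 0. Higher in BRN were Nkx2-1 (at 0 in all 18 BST libraries, at most 4.23 CPM in BRN) and Lhx8 (at most 0.104 CPM in BST, 0.243 to 5.25 CPM in BRN), both of forebrain cholinergic neurons. Nr4a2, needed by midbrain dopamine neurons and also made in cortex, was higher in BRN with a log2FC of -1.54 (SE 0.19, adjusted p = 7.03e-10).

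Of 43 receptor genes tested, of 45, 7 were higher in BST, 10 in BRN and 26 were not called (median log2FC -0.02). The largest log2FC of BST over BRN were those of the glycine receptor subunits Glra1 (log2FC 5.87, SE 0.28, 20.6 to 61.6 CPM in BST and 0 to 8.21 CPM in BRN) and Glra4 (3.97, SE 0.46), and of the serotonin receptor Htr5b (3.42, SE 0.19). Higher in BRN were the muscarinic receptors Chrm1 (log2FC -5.79, SE 0.10, 1.70 to 3.90 CPM in BST and 94.4 to 197 CPM in BRN) and Chrm4 (-3.95, SE 0.18), and the dopamine receptor Drd1 (-5.50, SE 0.15). All 3 lists had the same counts in each direction without BST 0 h replicate 2.

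Fasting was tested within each organ, first over all 6 times jointly by edgeR at an adjusted p under 0.05. Of the 10 genes, 9 passed the filter on low counts in BST, where Slc6a3 did not, 8 in BRN, where Fev and Slc6a2 did not, 5 in CBL (Tph2, Dbh, Slc6a2, Slc5a7, Slc6a5) and 2 in OB (Dbh, Slc6a3). In none of the 4 organs was any of them called, where 0.107% of all genes were called in BST, 0.00597% in BRN, 2.99% in CBL and 15.4% in OB. At an unadjusted p under 0.05 edgeR had 1 in BST (Fev, adjusted p = 0.321) and 0 in BRN, CBL and OB, where 11.1% of all genes were in BST, 16.6% in BRN, 23.8% in CBL and 32.4% in OB. DESeq2 called 0 in each organ, beside 1.26% of all genes in BST, 9.42% in BRN, 11.1% in CBL and 22.5% in OB. The adjusted p ranged from 0.321 to 0.975 in BST and from 0.339 to 0.916 in BRN. Few genes of any kind were called in BST and BRN by edgeR, so its count of 0 there is near the background.

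Against 0 h, edgeR called none of these genes at any time in BST or BRN under the rule used for the organs. In BST 0.0% of all genes were called at 2, 8, 12, 18 and 22 h, and in BRN 0.0% at 2 and 8 h, 3.42% at 12 h, 1.91% at 18 h and 3.68% at 22 h. At an unadjusted p under 0.05 there were 4 of 45 tests of a gene at a time in BST and 4 of 40 in BRN, where 8.06% of the tests of all genes were in BST and 18.8% in BRN. DESeq2 called 0 in BST, as for all genes (0.0%), and 3 of 40 in BRN, where it called 4.58% over all genes, with 6.38% at 12 h and 7.39% at 18 h. These 3 were Tph2 at 12 h, and Chat and Slc18a3 at 18 h.

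The mean level of Tph2 in BST was 58.3 ± 20.7 CPM at 0 h (SD, n = 3), 70.3 ± 26.1 at 2 h, 38.5 ± 10.9 at 8 h, 42.5 ± 4.63 at 12 h, 34.9 ± 4.38 at 18 h and 43.5 ± 11.0 at 22 h. The 3 mice of 0 h were at 34.7, 66.6 and 73.5 CPM, so that 1 of them lay within the range of 8 to 22 h. At 18 h, the lowest, the log2FC against 0 h was -0.73 (SE 0.34, adjusted p = 0.528). Slc6a4 went with it, from 29.04 ± 11.6 CPM at 0 h and 38.8 ± 16.4 at 2 h to 18.4 ± 3.80 at 18 h. The 4 libraries with the highest En/Pax sums are among the 6 of 0 and 2 h. Fev was 1.54 ± 0.0901 CPM at 0 h and 0.663 ± 0.348 at 22 h (log2FC -1.18, SE 0.43, adjusted p = 0.513 by edgeR), on a median of 11 counts.

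In BRN Tph2 was 6.96 ± 4.98 CPM at 0 h (11.5, 1.63 and 7.78 CPM) and 18.9 ± 11.4 at 12 h (22.7, 6.03 and 27.96 CPM). The ranges overlap, and the log2FC of 1.56 had an SE of 0.58 and an adjusted p of 0.113 by edgeR and 0.0488 by DESeq2. It was 0.00501 to 0.617 over 13 of the 26 settings of the BRN fit. Of the settings that left out a single library, these 13 hold only those of 12 h replicate 3 and 18 h replicates 2 and 3. The highest of these values is that of BRN 12 h replicate 3, which had the highest Hox, En/Pax and cerebellum sums of BRN. Without it the log2FC was 1.23 (SE 0.64, adjusted p = 0.241), and the part of these markers was not tested. Chat was 4.04 ± 1.02 CPM at 0 h (5.22, 3.41 and 3.50 CPM), and at 18 h the 2 kept libraries had 0 and 0.401 CPM (log2FC -3.86, SE 1.27, adjusted p = 0.0862 by edgeR and 0.0378 by DESeq2). Over those of the 13 settings with at least 2 BRN libraries at 18 h, the adjusted p was 0.0378 to 0.512. Slc18a3 was 4.40 ± 1.11 CPM at 0 h, and 0 and 1.40 CPM at 18 h (log2FC -2.32, SE 0.87, adjusted p = 0.118 by edgeR and 0.0439 by DESeq2, 0.0439 to 0.613 over the same settings). Slc5a7 at 18 h was 0 and 6.42 CPM, against 5.41 to 10.5 CPM at 0 h. The 0 values are from BRN 18 h replicate 2, which had 13692 genes with a count, the fewest of the kept libraries, and a pan-neuronal marker sum of 2135 CPM, the lowest of BRN (median 4013). Their part in the low cholinergic values was not tested.

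The genes of acetylcholine, glycine and noradrenaline were also set out by time in BST. Slc5a7 had time means from 77.03 ± 19.9 CPM (0 h) to 86.5 ± 13.7 (12 h), and Chat from 18.1 ± 1.51 (22 h) to 21.5 ± 4.56 (12 h). Slc6a5 was 404 ± 114.5 CPM at 0 h, where replicate 2 had 272 CPM and the others 460 and 480 CPM, 442 ± 96.7 at 2 h, and 509 ± 13.8 at 8 h, 508 ± 11.4 at 12 h, 514 ± 10.8 at 18 h and 463 ± 22.04 at 22 h. Dbh was 18.0 ± 5.73 CPM at 0 h and 27.6 ± 4.52 at 18 h (log2FC 0.62, SE 0.28, adjusted p = 0.520 by edgeR). None of these differences passed the threshold, which does not show that the levels were equal.

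**Figure D3:**
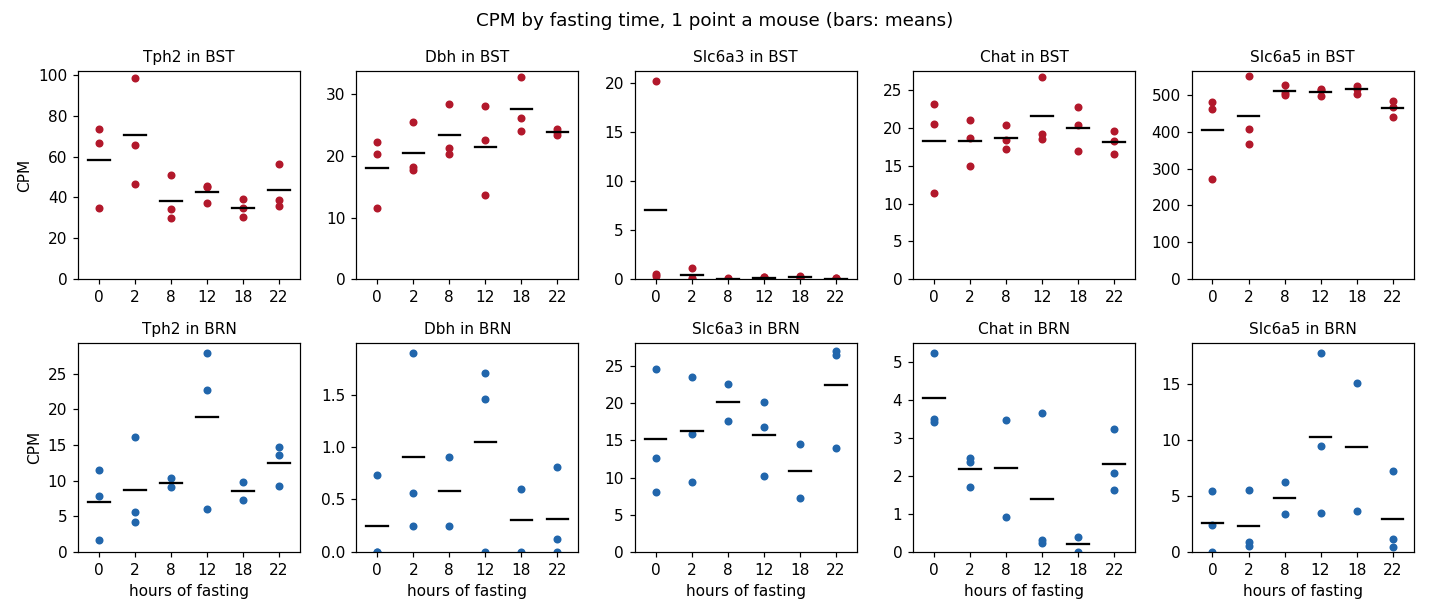
CPM of 1 gene of each transmitter at each of the 6 fasting times in BST (upper row) and BRN (lower row), 1 point a mouse with bars at the mean (3 mice a time, 2 in BRN at 8 and 18 h). No gene tested was called at any time against 0 h by edgeR (Slc6a3 was not tested in BST), and the high Slc6a3 point in BST is 0 h replicate 2 at 20.2 CPM.

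Whether fasting changed a gene differently in BST and BRN was tested as an interaction, the change from 0 h in BST minus that in BRN. At 2 h edgeR called 0 of 10 genes (0.0% of all genes), and 2 had an unadjusted p under 0.05, as had 2988 of all 18496 genes. DESeq2 called 2 at 2 h, Slc6a4 and Slc6a3, where it called 0.606% of all genes. At the later times edgeR called 1 at 8 h (7.94%), 2 at 12 h (10.7%), 3 at 18 h (13.8%) and 2 at 22 h (9.42%). Of these 8 calls 4 are of Slc6a3 and rest on BST 0 h replicate 2, without which no difference of Slc6a3 was called. Without it Tph2 at 22 h was not called either (-1.29, adjusted p = 0.0711, against -1.39 and 0.0352 with it, and 4.4e-05 to 0.164 over the fit and its 12 alternatives), while Slc6a5 at 12 h was (-1.84, adjusted p = 0.0362, against -1.62 and 0.0588 with it, and 1.14e-08 to 0.349 over all of these). Tph2 at 12 h, which was 42.5 against 58.3 CPM in BST and 18.9 against 6.96 CPM in BRN, differed by -1.97 on the log2 scale (SE 0.49, adjusted p = 0.0027). Without BST 0 h replicate 2 this was -1.88 (adjusted p = 0.0079), and without BRN 12 h replicate 3, which was chosen after seeing the data, -1.70 (adjusted p = 0.0114). Over the fit and its 12 alternatives the adjusted p ranged from 1.42e-09 to 0.0462. The libraries of BST and of BRN fall into 2 series of library numbers each, and no series holds both organs. All 3 BRN libraries of 0 h are of 1 series and all kept ones of 8, 18 and 22 h of the other, and all 3 BST libraries of 0 h are of 1 series and all of 2 and 12 h of the other. Within those contrasts time and number series cannot be told apart. With the series as a covariate in both organs, estimated from the times that hold both and chosen after seeing the data, the Tph2 difference at 12 h was -3.18 (SE 0.54, adjusted p = 0.000484). In that fit 10 differences were called, a count that stands without the share of all genes called. Without the covariate, the counts at 8 to 22 h are not far from the share of all genes called.

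The promoters of the serotonin genes are shown because Tph2 and Slc6a4 went together across mice and Fev, the third, is a factor of the ETS family. RefSeq's table for GRCm38.p6 held a promoter of 9 of the 10 genes, each 250 bases before to 50 bases after the start, and none for Slc6a2. Capitals mark the core that ETS factors share, GGAA, or TTCC for the other strand. It was found 5 times in the promoter of Tph2 (chr10:115184973-115185272, minus strand), once in that of Slc6a4 (chr11:76998347-76998646, plus strand) and at 2 places in that of Fev (chr1:74885359-74885658, minus strand). These 4 letters occur in 96.0% of 32851 promoters of this length, so that their presence sets nothing apart.
Tph2: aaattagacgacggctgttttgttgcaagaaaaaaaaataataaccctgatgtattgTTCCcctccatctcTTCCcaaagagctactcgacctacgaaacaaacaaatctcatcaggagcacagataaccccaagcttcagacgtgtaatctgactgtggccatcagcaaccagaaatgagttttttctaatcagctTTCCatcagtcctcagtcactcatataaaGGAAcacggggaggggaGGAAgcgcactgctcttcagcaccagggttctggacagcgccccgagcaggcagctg
Slc6a4: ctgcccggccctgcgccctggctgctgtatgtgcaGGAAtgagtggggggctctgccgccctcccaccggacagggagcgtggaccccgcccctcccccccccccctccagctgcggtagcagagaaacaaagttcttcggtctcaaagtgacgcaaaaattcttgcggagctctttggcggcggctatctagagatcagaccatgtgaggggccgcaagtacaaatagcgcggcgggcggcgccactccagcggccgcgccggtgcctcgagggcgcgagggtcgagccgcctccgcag
Fev: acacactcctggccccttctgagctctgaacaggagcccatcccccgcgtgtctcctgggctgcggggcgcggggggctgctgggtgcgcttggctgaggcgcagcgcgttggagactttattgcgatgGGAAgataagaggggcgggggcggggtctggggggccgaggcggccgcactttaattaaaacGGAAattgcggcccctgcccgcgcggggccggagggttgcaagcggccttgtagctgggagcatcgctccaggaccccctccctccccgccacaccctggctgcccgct

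After the sequence was seen, the Tph2 promoter was also searched for 2 stretches of the RE1 element, the site of a repressor of neuronal genes. TTCAGCACC starts at base 259 and GGACAGC at base 276 of the 300, on the same strand with 8 bases between them, and no ETS core overlaps them. On either strand the first is in 0.371% of the promoters and the second in 6.56% (2155), and both on 1 strand are in 12 of them. The match is a description of letters, and binding was not measured.

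The 10 genes lie on 9 chromosomes of GRCm38, and Chat and Slc18a3 are the neighbours among them. Chat spans chr14:32408203-32465989 and Slc18a3 chr14:32462438-32464850, both on the minus strand. Tph2 spans chr10:115078641-115185022, Slc6a4 chr11:76998603-77032340, Fev chr1:74881509-74885419, Dbh chr2:27165233-27183200, Slc6a2 chr8:92960079-93001667, Slc6a3 chr13:73536747-73578672, Slc5a7 chr17:54273590-54299034 and Slc6a5 chr7:49910146-49963856. Their exons cover 1617 bases in Fev to 7203 bases in Slc6a5, the lengths used for the levels per kb.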

How the data were processed

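The counts per gene were made by the authors and deposited as raw counts, from stranded mRNA libraries aligned with TopHat2 2.1.1 to GRCm38.p5 and counted with HTSeq 0.9.1 on Gencode M16 genes. The strand setting of HTSeq is not stated. Libraries whose log total lay over 2 SD below their organ's mean were left out, 5 of 162 and 2 of them BRN. Genes were kept at the CPM of 10 counts in a library of median size (0.949 in BST, 1.23 in BRN, 1.18 in CBL, 0.860 in OB, 1.09 over the 4 organs) in at least 3 libraries. Tests were edgeR 4.0.16 quasi-likelihood fits (TMM, robust) over all kept genes in R 4.3.3 with limma 3.58.1, with DESeq2 1.42.0 as an alternative, and permutation tests in Python 3.11.15 (pandas 2.3.3, numpy 2.4.6, scipy 1.17.1, matplotlib 3.10.9). The fits were tested on simulated data, where the joint test of DESeq2 made more false calls than that of edgeR. Organs were compared with each time weighted equally. Replicate numbers were taken to pair the organs of a mouse within a time point, which the sample titles do not state. The correlations between organs of the same mouse and the animal block rest on this. Correlations of libraries of 1 organ with the same number at different times (mean r 0.0142 in BST, -0.0178 in BRN) did not set them apart from other pairs, and do not test that pairing. Coordinates and exon lengths come from Gencode M21 on GRCm38. Besides the 10 genes, those named are the 3 of each pathway list with the largest log2FC called in each direction and the 5 most like each of Tph2, Dbh, Slc6a3, Chat and Slc6a5. The result of 1 gene that this rule names is not reported. Marker genes are named from their lists, and Th was named after its values were seen. The genes and lists were chosen with earlier results of these data known.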

Additional observations from a re-analysis of the deposited data

Results flagged for a closer look

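In 8 cases the change from 0 h differed between BST and BRN by the edgeR interaction test, given here as BST minus BRN on the log2 scale. They were 1 of 10 genes at 8 h (7.94% of all genes were called), 2 at 12 h (10.7%), 3 at 18 h (13.8%) and 2 at 22 h (9.42%). These counts are not far from the shares, so that they are no finding on the 10 genes as a set. For Slc6a3 the difference was -6.69 at 8 h (SE 1.32, adjusted p = 0.000563), -5.37 at 12 h (SE 1.19, adjusted p = 0.00101), -4.64 at 18 h (SE 1.35, adjusted p = 0.00996) and -6.90 at 22 h (SE 1.39, adjusted p = 0.000369). All 4 rest on BST 0 h replicate 2, which held 210 of the 250 counts of Slc6a3 in BST. Without it they were -2.73, -1.40, -0.68 and -2.94, and none was called.

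For Tph2 the difference was -1.97 at 12 h (SE 0.49, adjusted p = 0.0027), called in 13 of 13 settings (the fit and 12 alternatives), and -1.39 at 22 h (SE 0.49, adjusted p = 0.0352), called in 7 of 13 and not without BST 0 h replicate 2 (-1.29, adjusted p = 0.0711). The serotonin genes were high in the BST libraries of 0 and 2 h that had high sums of En1, En2, Pax5 and Pax7. In BRN the highest Tph2 of 12 h (27.96 CPM) was that of replicate 3, which also had the highest Hox, En/Pax and cerebellum sums of BRN. Without that library the difference at 12 h was -1.70 (adjusted p = 0.0114), and the part of these markers in the differences was not tested.

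At 18 h the difference was 3.99 for Chat (SE 1.05, adjusted p = 0.00426) and 2.28 for Slc18a3 (SE 0.74, adjusted p = 0.0191). BRN had 2 libraries at 18 h. Without 18 h replicate 2 of BRN the differences were 3.38 and 1.63, and without replicate 2 of every organ and time 3.20 and 1.32. Without replicate 3 of every organ and time they were 8.92 and 8.59. Each of these fits leaves a single BRN library at 18 h, so that no call is drawn from them. All kept BRN libraries of 8, 18 and 22 h are of another series of library numbers than those of 0 h, as are the BST libraries of 2 and 12 h, so that time and number series cannot be told apart in these contrasts. With the series as a covariate, Slc18a3 at 18 h (1.63) and Slc6a3 at 12 and 18 h (-4.76 and -4.56) were no longer called. Tph2 at 12 and 22 h (-3.18 and -2.89), Chat at 18 h (4.67) and Slc6a3 at 8 and 22 h (-6.61 and -6.58) were.

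Outside the nervous system, Slc18a3 was above 3 counts in 17 of 17 kept libraries of the stomach (STM), with 6 to 29 counts and a median of 1.70 CPM. This is a signal in samples that the comparisons did not use.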

How the results depend on the processing

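Of the member results, 636 of the organ pairs kept their side of the threshold under an alternative, 6 passed it newly and 18 no longer did. These numbers were 2088, 12 and 0 for the fasting times, and 552, 23 and 25 for the interaction. Of the correlations 27 no longer passed and 0 passed newly, with centred values permuted across all libraries, and no called result changed sign. Values not called did in 4.95% of the alternative results of fasting times, 8.67% of the interaction (52), 7.14% of the correlations (10) and 0.455% of the organ pairs (3). Leaving out a replicate number in turn gave 5 to 8 called genes for BRN over CBL (9 with all), 3 to 6 for BRN over OB (6), 6 to 8 for CBL over OB (9), 0 to 2 for fasting times in BRN (0) and 2 to 10 for the interaction (8). With no filter beyond 1 count, the joint test had 2 in BRN (Slc6a5, Tph2) and 1 in CBL (Slc5a7), the fasting times in BRN had 4 and the interaction 15. The counts under alternatives in this section stand without the share of all genes called, so that they are no finding on the 10 genes. DESeq2 had 3 for the fasting times in BRN. Among alternatives chosen after seeing the data, the fasting times in BRN had 3 without BRN 18 h replicate 3, where a single library was left at 18 h and was taken to vary like the others. The interaction had 4 without BST 0 h replicate 2 and 10 with the library series as a covariate, while BRN over CBL had 9. Of 21 correlations, 7 passed without the 2 farthest samples. The cause was not tested.

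With the animal as a replicate block, 8 genes were called for BRN over CBL and 8 interactions. With the replicate number as a block, 0 passed the joint test and 0 the fasting times. Library series (BRN) and lane (OB) as covariates gave 0. Leaving out BRN libraries nearest to another organ was not run, since none was. Genes with few counts (Fev, Slc6a3 in BST, Dbh and Slc6a2 in BRN) are limited by depth.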

Other observations

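Outside the nervous system the stomach (STM) held the cholinergic transporters, with Slc5a7 at 3 to 67 counts in 17 kept libraries (median 2.48 CPM) beside Slc18a3, while Chat had no count in 9 of 17. STM is innervated by enteric cholinergic neurons. In pgWAT (perigonadal fat), Tph2 had 3 to 71 counts in 18 libraries (median 0.954 CPM, highest in 2 h replicate 1) and Slc6a4 3 to 49 counts (median 2.04 CPM). In the liver Tph2, Chat, Slc18a3, Slc5a7 and Slc6a5 had no count in any of 18 libraries.

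Single libraries stood out in psWAT (subcutaneous fat). Slc6a5 was at 19.3 CPM in 12 h replicate 3 and at 0 in 15 of 17 libraries, and Slc5a7 was at 19.5 CPM in 18 h replicate 3, against a median of 0.213 CPM.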
